A study of Mus musculus with 20 samples.

Results

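White adipose tissue of mice that ate a high-fat diet and drank Tibetan tea was compared with that of mice that ate chow and drank water. These 2 groups, called high-fat tea and chow water here, make up 10 of the 20 libraries of the series, 5 mice a side, and were chosen by diet and drink alone. The tea, a fermented dark tea, was given as a water extract, and feeding lasted 10 weeks. The other 10 libraries are those of chow-fed mice on tea and of high-fat-fed mice on water, which entered the same fit and are given as values beside the results. Both diet and drink differ between the groups compared, so their parts in any difference cannot be told apart here. The sources used here do not give strain, sex, age, tea dose, fat depot or the hour at which tissue was taken. The comparison asks which genes of tea-drinking, high-fat-fed mice still differed from untreated chow-fed mice, and which lay at their level.

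Poly-A RNA was sequenced and counted per gene, with 53047057 to 81589152 reads in genes per chow water library and 65628521 to 86919459 per high-fat tea library. Fat cell genes were abundant in every library of the groups compared. Plin1, the perilipin coat protein of lipid droplets, stood at 337.5 CPM (reads scaled to a common library size) or more, and the adiponectin gene Adipoq at 844 CPM or more. Some libraries also held transcripts of other organs. Genes of the pancreas acinus took 37.3% of the reads of chow water replicate 1, and kidney genes took 3.07% of those of high-fat tea replicate 4. Skeletal muscle genes took 3.83% in high-fat tea replicate 1, 1.01% in high-fat tea replicate 3 and 0.533% in chow water replicate 2, which also held 0.23% kidney. On the first principal component of the 10 libraries (39.2% of the variance), replicate 1 of chow water (−162.6) and replicate 4 of high-fat tea (−159.7) stood apart from the other 8, which lay between −40.2 and 85.6. The calls of named genes and lists in high-fat tea against chow water are therefore also given without these 5 libraries, or without the 2 that stood apart, where they differ. High-fat water held such transcripts too. In its replicate 4, genes of the male tract took 3.92% of the reads and adrenal genes 1.54%. Skeletal muscle genes took 3.48% in high-fat water replicate 5 and 0.551% in high-fat water replicate 3. A bulk level is an average over the tissue, so fewer cells of a type and less RNA per cell cannot be told apart.

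Few genes were called different. Of 21306 genes tested, 16 passed an adjusted p of 0.05 (0.0751%), 7 of them higher in high-fat tea (0.0329%) and 9 lower (0.0422%). Of these 16, 10 were genes of the circadian clock or its direct outputs, and the other 6 were Cdkn1a, Alkal2, Leo1, Pde3a, Zfp740 and Npepps. At an unadjusted p below 0.05, 2484 genes passed (11.7%), 1384 of them higher and 1100 lower. The 5 high-fat tea libraries did not overlap the 5 chow water libraries for 272 genes (1.28%). A further 11177 genes (52.5%) were not called and had a 95% interval of the log2 fold change that lay wholly between −1 and 1. These genes, within 2-fold of chow water in either direction, are described here as lying at the chow level. They may still differ by less than 2-fold, as with Vldlr (log2 0.53, interval 0.07 to 0.98). The remaining 10113 genes (47.5%) were unresolved, meaning neither called nor bounded within 2-fold. The count of called genes is therefore not a count of the genes that differed.

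More of the highly expressed genes could be placed. The share at the chow level was 11.0% among genes with a mean log2 CPM below 0, 64.3% between 2 and 4, and 82.3% above 6. The count of calls depended on the libraries and the tool. It was 34 without chow water replicate 1, 27 without high-fat tea replicate 4 and 53 without both, and DESeq2 called 267 genes against the 16 of edgeR. Higher calls numbered 7 with all libraries, 13 without high-fat tea replicate 4 and 11 without chow water replicate 5, and lower calls numbered 9 with all, 25 without chow water replicate 1 and 14 without high-fat tea replicate 4. In the same fit, high-fat feeding without tea changed 3232 genes (15.2%) against chow water, and 2110 without chow water replicate 2 or 1890 without high-fat water replicate 1. With all libraries 8.06% of genes were higher there, 7.11% lower, 40.1% at the chow level and 44.7% unresolved. High-fat tea differed from high-fat water in 928 genes (4.36%), with 2.06% of genes higher, 2.3% lower, 46.9% not called and within 2-fold, and 48.8% unresolved. Of the fits with 1 library left out, the lowest gave 212 calls, without high-fat water replicate 1, and the highest 2017, without high-fat tea replicate 5. A fit to the libraries of the 2 high-fat groups alone gave 21 calls. Calls of single genes and lists that involve high-fat water are those of the fit to all libraries. They were not followed gene by gene under the alternatives. These 2 comparisons share the chow water or the high-fat tea libraries with the one described, so their values below stand side by side and are not independent of it.

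**Figure D1:**
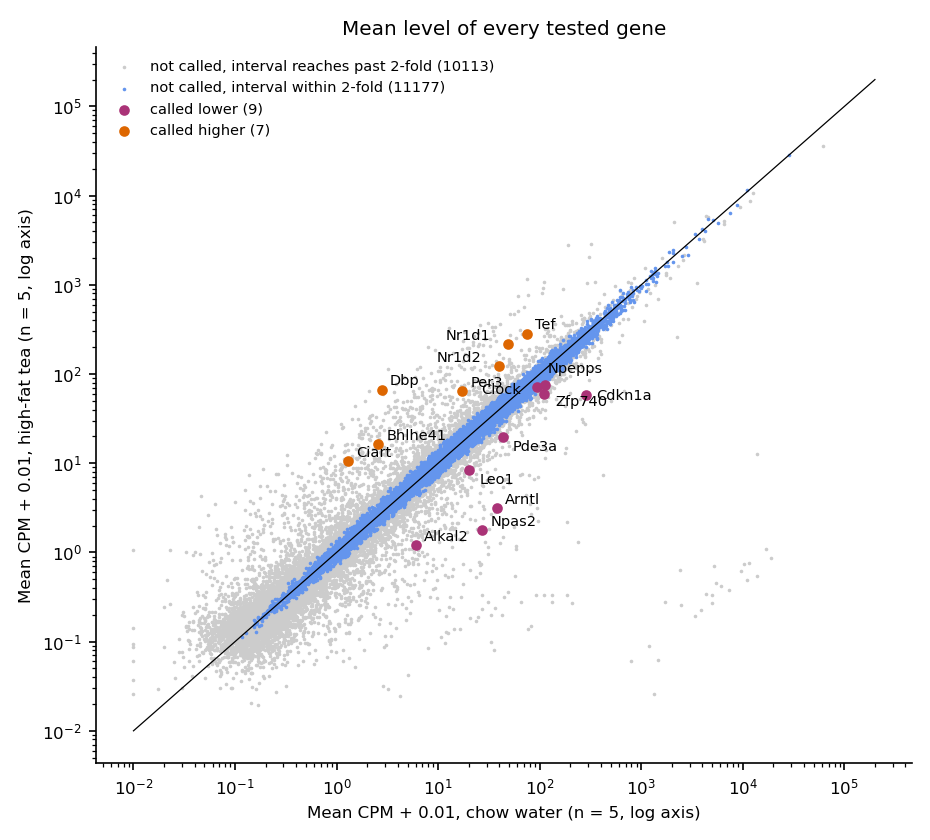
Mean level of each of the 21306 genes tested, as mean CPM plus 0.01 over 5 chow water libraries (x, log axis) and 5 high-fat tea libraries (y, log axis), with the line of equality. The 7 genes called higher and the 9 called lower are named, 11177 genes at the chow level lie along the line, and the 10113 unresolved genes spread around it.

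The circadian clock is a feedback loop of transcription that runs in most cells, fat cells included. The proteins CLOCK or NPAS2 pair with BMAL1 (encoded by Arntl) and activate genes through E-box motifs, among them the period, cryptochrome and REV-ERB genes and the output factor Dbp. Period and cryptochrome proteins then repress that pair, while the REV-ERB proteins (Nr1d1, Nr1d2) repress Arntl, Npas2 and Clock. DBP, TEF and HLF activate genes through the D-box, where NFIL3 represses. The transcripts of the loop cycle over the day, with activators and their targets at different hours. As the hour of collection is not given, its part in the clock genes cannot be told apart from those of diet and drink.

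The 250 bases before the start of the called genes were searched for these motifs on both strands in RefSeq promoters of GRCm38.p6, which held 15 of the 16 genes. The E-box CACGTG stood before Ciart, Bhlhe41 and Tef, and in 6.02% of all 32851 promoters. Its variant CACGTT stood before Nr1d1, where it lies on the strand opposite to the one printed, and in 3.85% of all promoters. Per3 held the D-box TTATGTAA at 2 places, a motif present in 0.819% of promoters, whereas TTACGTAA was in no called gene's promoter and in 0.113% of all. The half-site TAGGTCA, bound by the REV-ERB receptors, stood before Leo1 and Zfp740, and in 2.23% of all. A match describes the letters of the window only. Tef held the E-box once in each of its 2 listed promoters, and Zfp740 held the half-site in 1 of its 2. The windows of Dbp, Nr1d2, Arntl, Npas2, Clock, Cdkn1a, Alkal2 and Npepps held none of these letters. The following 4 promoters, examples from genes that rose and hold a clock motif, are printed with the motif in capitals, on the strand of the gene, 5′ to 3′. They lie at chr3:95882229-95882478 (minus strand, Ciart), chr6:145865421-145865670 (minus strand, Bhlhe41), chr11:98775378-98775627 (minus strand, Nr1d1) and chr4:151044666-151044915 (minus strand, Per3) in GRCm38.p6.
Ciart: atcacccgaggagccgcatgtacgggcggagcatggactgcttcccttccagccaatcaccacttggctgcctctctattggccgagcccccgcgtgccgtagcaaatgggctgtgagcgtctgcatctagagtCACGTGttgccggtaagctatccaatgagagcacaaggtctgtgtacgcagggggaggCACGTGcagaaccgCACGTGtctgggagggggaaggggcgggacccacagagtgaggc
Bhlhe41: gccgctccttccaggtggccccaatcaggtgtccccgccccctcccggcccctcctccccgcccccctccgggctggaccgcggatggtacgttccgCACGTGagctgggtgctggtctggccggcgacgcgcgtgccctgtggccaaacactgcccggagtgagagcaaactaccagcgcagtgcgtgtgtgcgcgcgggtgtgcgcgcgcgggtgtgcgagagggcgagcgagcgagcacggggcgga
Nr1d1: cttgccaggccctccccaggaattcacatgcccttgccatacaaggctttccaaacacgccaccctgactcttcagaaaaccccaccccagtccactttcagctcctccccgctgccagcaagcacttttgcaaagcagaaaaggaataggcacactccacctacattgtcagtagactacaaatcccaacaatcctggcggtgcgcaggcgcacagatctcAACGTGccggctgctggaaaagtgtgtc
Per3: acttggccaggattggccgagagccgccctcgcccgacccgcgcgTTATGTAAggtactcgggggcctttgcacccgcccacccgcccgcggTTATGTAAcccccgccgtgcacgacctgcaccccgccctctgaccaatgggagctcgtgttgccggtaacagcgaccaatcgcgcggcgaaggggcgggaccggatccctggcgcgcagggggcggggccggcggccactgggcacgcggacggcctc

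The activating arm of the clock was lower in high-fat tea. Arntl (GRCm39 chromosome 7, 112806672 to 112913333, plus strand), the common partner of the activators, read 48.5, 34.3, 32.5, 31.2 and 42.7 CPM in chow water replicates 1 to 5 and 4.13, 3.20, 2.78, 1.94 and 3.67 CPM in high-fat tea. Every high-fat tea library lay far below every chow water library. The mean fell from 37.9 ± 7.45 to 3.15 ± 0.841 CPM (SD, n = 5 per group), which was 12.0-fold lower (log2 −3.59, SE 0.32, adjusted p = 1.24e-05). Npas2 (chromosome 1, 39232812 to 39402317, plus strand), which can take the place of CLOCK, read 27.6, 25.1, 34.2, 22.6 and 25.0 CPM in chow water and 1.93, 1.24, 2.46, 1.81 and 1.46 CPM in high-fat tea. It was 15.1-fold lower without overlap (log2 −3.92, SE 0.36, adjusted p = 1.24e-05). Clock itself (chromosome 5, 76357715 to 76452639, minus strand) differed less, with 98.5 to 116 CPM in chow water and 51.1 to 71.2 CPM in high-fat tea. Its log2 change was −0.88 (SE 0.10, adjusted p = 0.000228), again with separate groups, although the call was lost without the 5 libraries that held transcripts of other organs (log2 −0.91).

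Several genes of the repressing arms were higher, while Per1 lay at the chow level and Cry1 was lower but not called. Nr1d1 (chromosome 11, 98658758 to 98666159, minus strand), the nuclear receptor REV-ERB alpha, read 40.0, 54.3, 67.3, 34.0 and 49.5 CPM in chow water and 188, 284, 297, 147 and 174 CPM in high-fat tea. The groups did not overlap, and the mean rose 4.45-fold (log2 2.15, SE 0.22, adjusted p = 3.74e-05). Its paralog Nr1d2 (chromosome 14, 4230569 to 4265642, plus strand) rose 3.07-fold, from 40.0 ± 8.03 to 123 ± 8.58 CPM (log2 1.62, SE 0.15, adjusted p = 1.24e-05). Per3 (chromosome 4, 151088109 to 151129122, minus strand), a period gene whose promoter held the pair of D-boxes printed above, read 7.79 to 23.6 CPM in chow water and 44.8 to 95.4 CPM in high-fat tea. Its rise was 3.73-fold (log2 1.90, SE 0.29, adjusted p = 0.00533). Ciart (chromosome 3, 95785815 to 95789563, minus strand), a repressor of the CLOCK and BMAL1 pair with 3 E-boxes in the promoter printed above, read 1.24, 1.85, 1.40, 1.31 and 0.640 CPM in chow water and 12.6, 8.84, 8.83, 12.8 and 9.10 CPM in high-fat tea. It rose 8.11-fold (log2 3.02, SE 0.43, adjusted p = 0.00288), a call lost only without the 5 libraries with transcripts of other organs. Bhlhe41 (chromosome 6, 145803969 to 145811284, minus strand), a helix-loop-helix repressor that competes at E-boxes, rose 6.38-fold, from 2.54 ± 0.660 to 16.2 ± 6.83 CPM (log2 2.67, SE 0.33, adjusted p = 0.000495). Reads of Bhlhe41 cannot be told from those of the opposite strand gene Gm43909, which covers 19.0% of its exonic bases.

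Among the 16 genes called with all libraries, an output factor had the largest rise. Dbp (chromosome 7, 45354512 to 45359627, plus strand), the D-box activator, read 2.18, 3.12, 2.95, 3.64 and 1.97 CPM in chow water and 51.2, 84.3, 65.9, 83.9 and 49.3 CPM in high-fat tea. It rose 24.1-fold with an interval from 4.10 to 5.08 on the log2 scale (log2 4.59, SE 0.23, adjusted p = 2.35e-09), and over 18 alternatives its log2 change stayed between 4.41 and 4.71. Sphk2, on the opposite strand, overlaps 18.0% of the exonic bases of Dbp. Tef (chromosome 15, 81686622 to 81711064, plus strand), of the same family, read 41.7, 85.7, 65.3, 90.0 and 91.0 CPM in chow water and 262, 280, 274, 373 and 230 CPM in high-fat tea. The rise was 3.79-fold (log2 1.92, SE 0.23, adjusted p = 0.000378), and its call was lost without the 5 libraries with transcripts of other organs.

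Of the 19 clock genes measured, all of which passed the filter on low counts, 7 rose and 3 fell, against 0.0329% and 0.0422% of all genes. In 15 of the 19, the libraries of the 2 groups did not overlap, against 1.28% of all genes. The median log2 change over the list was 0.95, against 0.02 over all genes, and described a list with members moving in both directions. Of the other 9 members, 2 lay at the chow level. These were Per1 (log2 0.09), a period gene, and Rora (log2 0.11), a nuclear receptor that activates Arntl. Uncalled and unresolved were Hlf (log2 2.23, adjusted p = 0.107), the E4 bZIP repressor Nfil3 (log2 −2.79, adjusted p = 0.111) and Bhlhe40 (log2 1.57, adjusted p = 0.131). The same held for Per2 (log2 0.95, adjusted p = 0.308), Cry1 (log2 −0.82, adjusted p = 0.210) and Cry2 (log2 0.74, adjusted p = 0.115), of which Cry2 was called without replicate 1 of chow water and replicate 4 of high-fat tea (log2 0.76, adjusted p = 0.000593). The repressors Cry1 and Nfil3 were lower without overlap. Cry1 read 23.6 to 29.65 CPM in chow water and 6.17 to 21.4 in high-fat tea, and Nfil3 21.7 to 67.4 and 2.13 to 16.3. DESeq2 called both lower. DESeq2 called 16 of the 19, against 267 of all 21306 genes.

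The high-fat tea means of several clock genes were near those of high-fat water. Dbp averaged 66.9 ± 17.0 CPM in high-fat tea and 68.3 ± 13.4 in high-fat water, and 2.77 ± 0.687 in chow water. The log2 difference of high-fat tea from high-fat water was −0.03 for Dbp, 0.01 for Bhlhe41, 0.07 for Nr1d2 and 0.14 for Per3, and each of these 4 intervals lay within 2-fold. It was 0.73 for Npas2, −0.86 for Arntl and 0.85 for Ciart, none of which was called or bounded within 2-fold. In chow-fed mice on tea, Nr1d1 averaged 154 ± 29.6 CPM, Nr1d2 72.2 ± 8.89 and Dbp 9.02 ± 1.68, each above its chow water mean, while Npas2 averaged 26.5 ± 11.4 CPM there and 26.9 ± 4.43 in chow water.

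**Figure D2:**
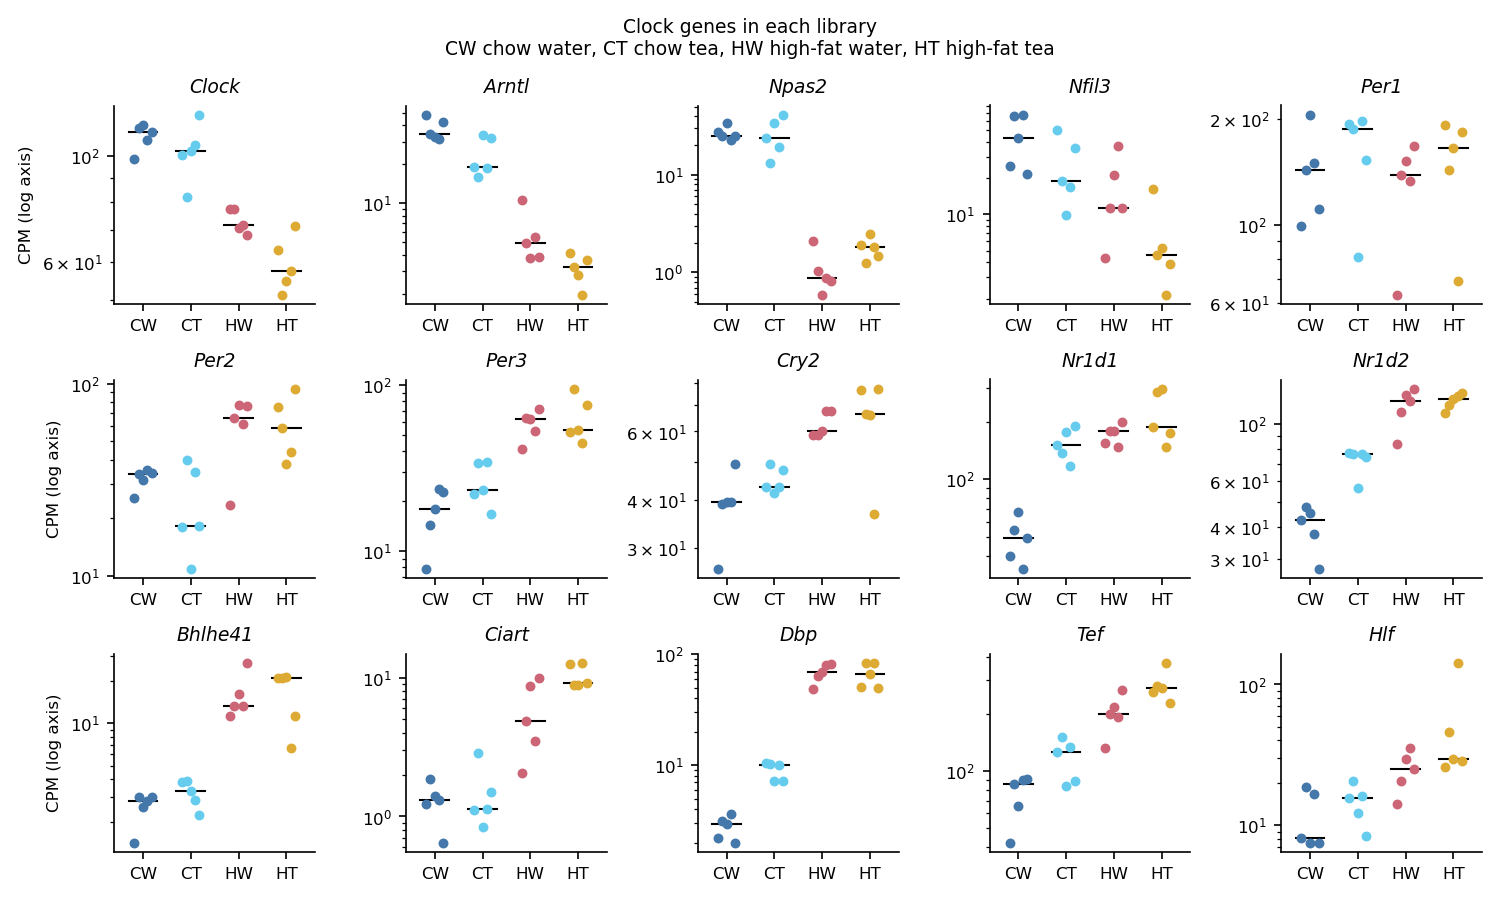
CPM (log axis) of 15 clock genes in each of the 20 libraries, by group, with a line at the median of 5. The high-fat tea libraries lie near those of high-fat water and away from chow water for Arntl, Npas2, Dbp, Nr1d2 and Bhlhe41, whereas the groups overlap for Per1.

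Outside the clock, 6 genes were called, all of them lower in high-fat tea. Cdkn1a (chromosome 17, 29309950 to 29319701, plus strand), which encodes the cell cycle inhibitor p21, read 305, 358, 264, 324 and 168 CPM in chow water and 96.2, 52.8, 65.2, 12.7 and 61.3 CPM in high-fat tea. It fell 4.92-fold (log2 −2.30, SE 0.38, adjusted p = 0.0158) and stood at a log2 change of −2.51 in high-fat water. Leaving out replicate 2 of chow water, or replicate 2 or 3 of high-fat tea, ended the call, at log2 changes from −2.35 to −2.20.

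Leo1 (chromosome 9, 75348806 to 75373714, plus strand), a subunit of the PAF1 complex that travels with RNA polymerase II, was the only called gene that also differed between the high-fat groups. It read 21.1, 20.2, 18.8, 19.0 and 21.1 CPM in chow water and 11.5, 6.23, 6.93, 7.73 and 9.71 CPM in high-fat tea. The fall was 2.38-fold (log2 −1.25, SE 0.14, adjusted p = 0.000158). In high-fat water Leo1 stood at 16.4 ± 1.35 CPM, at the chow level (log2 −0.29), and high-fat tea was lower than high-fat water (log2 −0.96, adjusted p = 0.00220). Its chow tea mean was 14.9 ± 1.36 CPM. None of the 10 fits with 1 library left out ended the call against chow water.

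Pde3a (chromosome 6, 141194995 to 141453174, plus strand), a phosphodiesterase that breaks down cyclic AMP, fell to 19.8 ± 3.99 CPM from 43.1 ± 10.4 (log2 −1.12, SE 0.17, adjusted p = 0.00492). Without the 5 libraries that held transcripts of other organs, its log2 change was −0.76 and not called. Alkal2 (chromosome 12, 30934321 to 30943853, plus strand), a ligand of the receptor tyrosine kinases ALK and LTK, read 4.20, 7.24, 8.33, 4.30 and 5.99 CPM in chow water and 2.36, 0.976, 1.25, 0.448 and 0.897 CPM in high-fat tea. The groups were separate, and the fall was 5.07-fold (log2 −2.34, SE 0.40, adjusted p = 0.0172). Leaving out replicate 2 or 3 of chow water, or replicate 2, 3 or 5 of high-fat tea, ended the call. Acp1 on the opposite strand covers 35.1% of its exonic bases.

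The smallest called differences were in genes of even levels. Npepps (chromosome 11, 97096668 to 97171464, minus strand), the puromycin-sensitive aminopeptidase, read 86.0 to 102 CPM in chow water and 68.3 to 75.5 CPM in high-fat tea. It fell 1.32-fold (log2 −0.40, SE 0.06, adjusted p = 0.00327), with 70.0 ± 0.599 CPM in high-fat water. Zfp740 (chromosome 15, 102111684 to 102124041, plus strand), a zinc finger gene, read 88.9 to 134 CPM in chow water and 67.9 to 83.3 CPM in high-fat tea. Its fall was 1.51-fold (log2 −0.59, SE 0.09, adjusted p = 0.00877), and the call was lost without chow water replicate 2. All 16 genes were called without replicate 1 of chow water and replicate 4 of high-fat tea, and 13 of 16 in all 10 fits with 1 library left out, the exceptions being Cdkn1a, Alkal2 and Zfp740. A fit to the 10 libraries alone called 8 genes and lost Bhlhe41, Per3 and the 6 genes outside the clock. Without the 5 libraries with transcripts of other organs, 10 genes were called, 8 of them among the 16. Cdkn1a, Alkal2, Zfp740 and Npepps lost their calls there, as did Clock, Ciart, Tef and Pde3a.

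**Figure D3:**
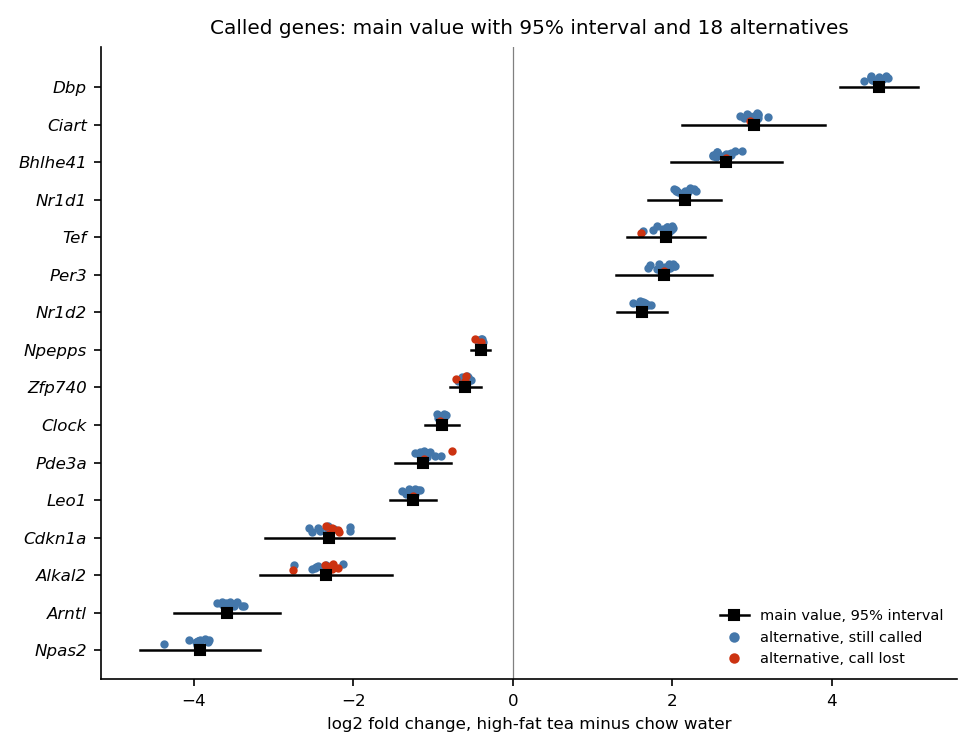
Log2 fold change of high-fat tea against chow water for the 16 called genes (x axis), with the 95% interval and the values under 18 alternative settings, coloured by whether the call held. The direction is the same in every alternative shown, and the calls lost are mostly those of Alkal2, Cdkn1a, Zfp740 and Npepps.

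With 0.0751% of all genes called, most gene lists of fat tissue held no called gene. Of 33 lists, 31 had 0 called members by edgeR, the exceptions being the clock list and the glucocorticoid list through Cdkn1a, and the median log2 change lay between −0.5 and 0.5 in 31 of 33. Over the 621 genes of these lists, each counted once, 7 were higher, 4 lower, 306 at the chow level and 304 unresolved. The share at the chow level was 49.3%, against 52.5% of all genes. At an unadjusted p below 0.05, 40 of the 621 were higher and 44 lower, against 1384 and 1100 of all 21306. DESeq2 called 26 of the 621, against 267 of all. Of 40 named genes at the chow level with all libraries, 26 were there under every alternative run. Lgals3, Adgre1, Ctss, Hsd17b10 and Abhd5 were there in 9 of 18 alternatives and Vldlr in 8.

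Mitochondrial genes of energy metabolism lay at the chow level. All 32 nuclear subunits of oxidative phosphorylation tested, which make up the respiratory chain and ATP synthase, were within 2-fold of chow water, with log2 changes from −0.22 to 0.19 and a median of −0.01. The share over all genes was 52.5%, and 82.3% among those of highest level. Ndufb8, a complex I subunit, read 8.26 ± 1.52 CPM in chow water and 8.20 ± 1.76 in high-fat tea. In high-fat water the same list had a median of −0.44, with 15 of 32 at the chow level and 1 lower. The enzymes that break down branched-chain amino acids numbered 22, and 21 lay at the chow level in high-fat tea (median 0.04), whereas 11 of 22 fell in high-fat water, against 7.11% of all genes (median −0.54). One of them, Hsd17b10, a mitochondrial dehydrogenase of isoleucine breakdown, read 134, 233, 205, 223 and 204 CPM in chow water and 113, 183, 288, 99.0 and 79.4 CPM in high-fat tea. The groups overlapped (log2 −0.39, interval −0.96 to 0.18), and high-fat water stood at 63.9 ± 1.84 CPM, lower than high-fat tea (adjusted p = 0.0191). Acadsb, the short branched-chain acyl-CoA dehydrogenase, was at the chow level at 187 ± 24.6 against 216 ± 34.0 CPM (log2 −0.21). Fatty acid oxidation had 17 of 24 members at the chow level, among them Etfa (log2 0.19), which passes electrons from these dehydrogenases to the respiratory chain. For insulin signalling and glucose transport the count was 13 of 18.

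For antigen presentation and lysosomes, the shares at the chow level were near those of all well expressed genes, 81.8% at a mean log2 CPM of 4 to 6 and 82.3% above 6. In the class II antigen presentation list, 10 of 12 members lay there (median −0.07), whereas 8 of 12 rose in high-fat water, against 8.06% of all genes (median 0.84). H2-Ab1, a chain of the class II molecule, averaged 226 ± 46.6 CPM in high-fat tea, 251 ± 44.3 in chow water and 471 ± 169 in high-fat water. Ciita, the coactivator that class II genes need, read 5.32 to 12.2 CPM in chow water and 6.30 to 11.6 CPM in high-fat tea (log2 0.05, interval −0.58 to 0.69). Ctss, cathepsin S, read 52.2 to 87.7 CPM in chow water, and in high-fat tea 43.3 to 79.7 CPM in 4 libraries and 158 CPM in replicate 5 (log2 0.23, interval −0.48 to 0.94). High-fat tea was lower than high-fat water in H2-Ab1, Ciita and Ctss (adjusted p = 0.0223, 0.0180 and 0.0108). Of 23 lysosome genes, 18 were at the chow level, such as the ion channel gene Mcoln1 (log2 0.02). The median was 0.23, and 5 of 23 were higher at an unadjusted p below 0.05, against 1384 of all 21306 genes. In high-fat water 10 of 23 were called higher, against 8.06% of all genes.

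Collagens were at the chow level or unresolved. Of 31 collagens and matrix genes, 17 lay at the chow level, against 52.5% of all genes, and 14 were unresolved (median 0.06). At an unadjusted p below 0.05, 1 of the 31 was higher, against 1384 of all 21306 genes. Neither edgeR nor DESeq2 called any, against 16 and 267 of all genes. In high-fat water 11 of 31 rose, against 8.06% of all genes (median 0.70). Col1a1, the main chain of type I collagen, averaged 219 ± 90.4 CPM in high-fat tea and 218 ± 95.4 in chow water (log2 0.01, interval −0.75 to 0.77). Col18a1 was at the chow level (log2 0.23), and high-fat tea was lower than high-fat water (log2 −0.75, adjusted p = 0.0483). Col15a1, a basement membrane collagen, was unresolved, with 34.3, 35.7, 62.8, 52.1 and 99.1 CPM in chow water and 108, 44.5, 40.0, 30.8 and 152 CPM in high-fat tea (log2 0.40, interval −0.43 to 1.23). It was lower than in high-fat water, at 392 ± 98.7 CPM (adjusted p = 0.00713). Of the endothelial list, 16 of 18 members were at the chow level, among them Emcn (log2 0.13), and of the progenitor and fibroblast list 12 of 18. Tgfb1, the growth factor that drives matrix synthesis, was at the chow level (log2 −0.04).

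**Figure D4:**
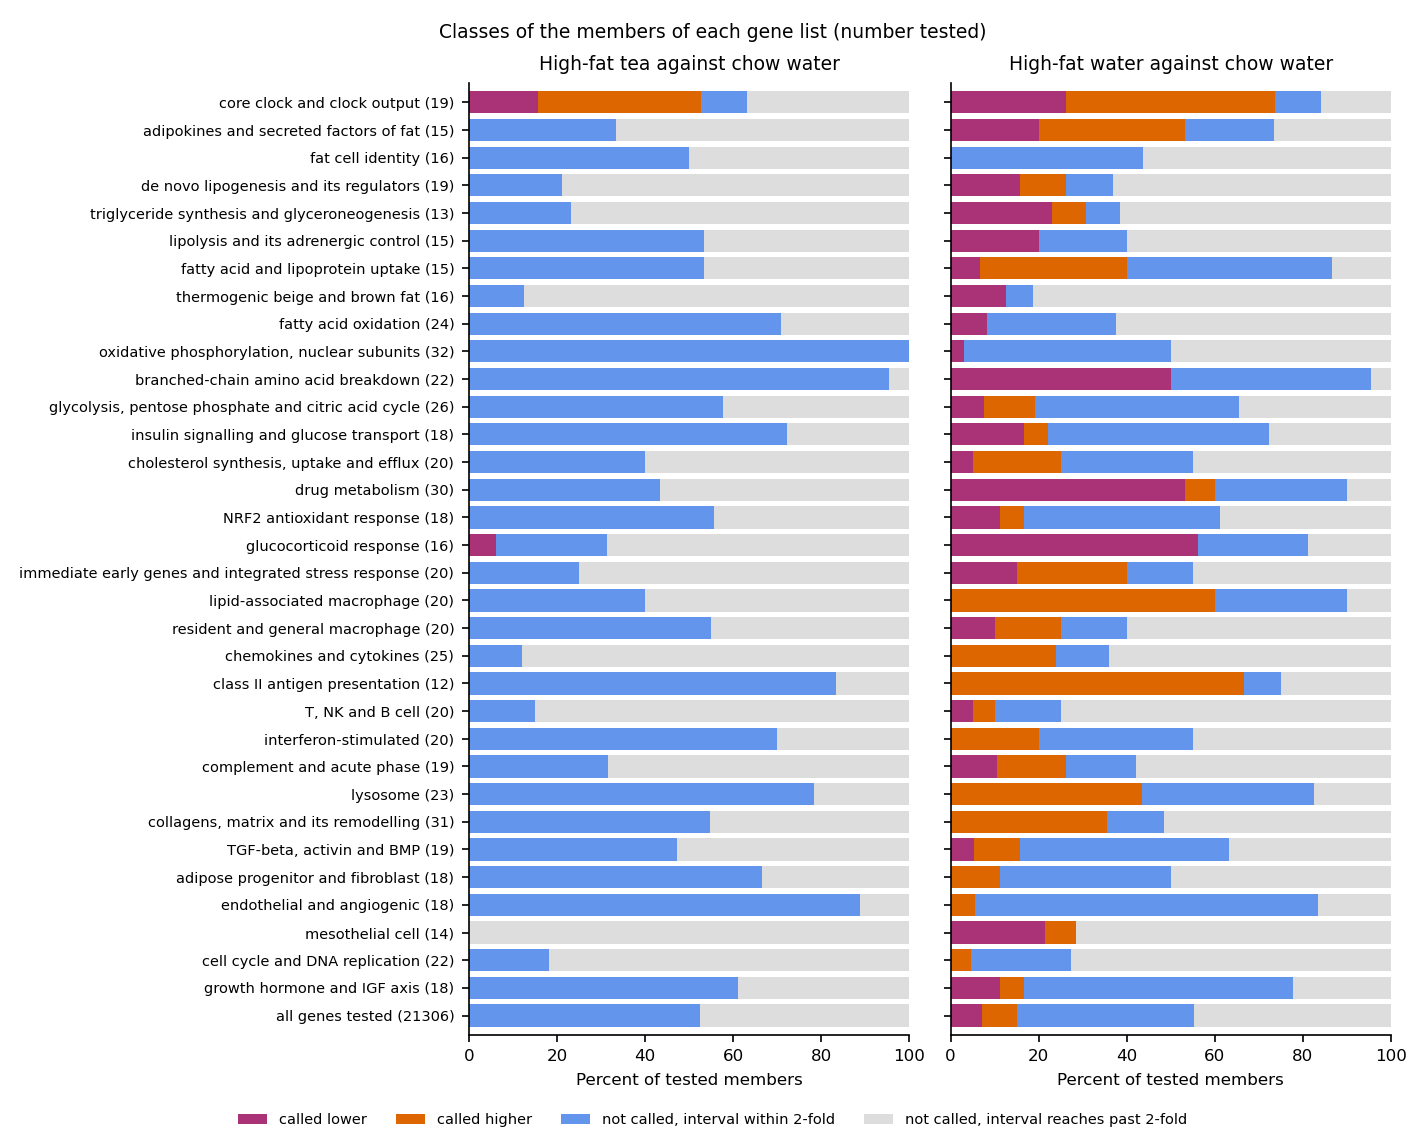
Percent of the tested members of 33 gene lists, and of all 21306 genes, that were called lower, called higher, at the chow level or unresolved, in high-fat tea (left) and high-fat water (right) against the same chow water libraries. On the left only the clock and glucocorticoid lists hold called genes, and the oxidative phosphorylation bar is filled by genes at the chow level.

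Leptin and several genes of lipid-laden macrophages could not be placed. Lep, the hormone released with fat mass, read 5.38, 50.1, 33.4, 35.4 and 170 CPM in chow water and 165, 66.5, 5.06, 97.7 and 943 CPM in high-fat tea. Replicate 5 of high-fat tea was near the high-fat water libraries, which ran from 951 to 3080 CPM, and replicate 3 was at the bottom of the chow range. The log2 change was 2.12 (SE 1.05, interval −0.09 to 4.32, adjusted p = 0.448), and it lay between 0.50 and 3.04 when each library was left out. High-fat tea was not called against high-fat water (log2 −2.65, adjusted p = 0.144).

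Mmp12, macrophage elastase, had the largest log2 change of the lipid-associated macrophage list. It read 0.782, 0.909, 0.794, 0.954 and 0.904 CPM in chow water and 6.19, 3.06, 1.66, 8.14 and 56.9 CPM in high-fat tea, without overlap (log2 4.12, SE 0.86, adjusted p = 0.107). Its log2 change was 2.45 without high-fat tea replicate 5, the highest library, and was not called there (adjusted p = 0.164). It was called by DESeq2 and without high-fat tea replicate 3 (log2 4.41). Mmp12 was lower than in high-fat water, which stood at 153 ± 80.1 CPM (adjusted p = 0.0289). Trem2, a lipid receptor of macrophages, read 1.92 to 4.51 CPM in chow water and 6.02, 1.95, 12.8, 3.26 and 20.3 CPM in high-fat tea (log2 1.64, adjusted p = 0.279). Gpnmb, a membrane glycoprotein of such macrophages, read 21.9 to 59.6 CPM in chow water, and in high-fat tea 18.1 to 61.0 CPM in 4 libraries and 223 CPM in replicate 5 (log2 0.99, and 0.02 without replicate 5). Lgals3, galectin 3, was at the chow level (log2 0.06, interval −0.81 to 0.93) although replicate 5 read 206 CPM. Of the 20 lipid-associated macrophage genes, edgeR called 0 and DESeq2 2, against 16 and 267 of all 21306 genes. At an unadjusted p below 0.05, 4 of the 20 were higher, against 1384 of all genes. At the chow level lay 8 of the 20, against 52.5% of all genes, and the list median was 0.35. In high-fat water 12 of 20 rose, against 8.06% of all genes (median 1.23). The general macrophage marker Adgre1 was at the chow level with all libraries (log2 0.10), and Itgax and Ccl2 were unresolved (log2 0.51 and 0.83).

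Genes of lipid synthesis were mostly unresolved. Fasn, fatty acid synthase, read 911, 3209, 1820, 9745 and 1971 CPM in chow water and 760, 3529, 514, 134 and 320 CPM in high-fat tea. The groups overlapped (log2 −1.75, interval −3.32 to −0.18, adjusted p = 0.367). The log2 change of Fasn was −0.91 without chow water replicate 4 and −3.03 without high-fat tea replicate 2, and was called in neither fit. Scd2, a desaturase, read 37.3, 54.2, 25.1, 66.2 and 53.7 CPM in chow water and 81.3, 125, 93.4, 61.6 and 62.6 CPM in high-fat tea, so that 2 high-fat tea libraries lay below the highest of chow water (log2 0.84, interval 0.33 to 1.35, adjusted p = 0.205). Its high-fat water mean of 324 ± 82.2 CPM was above high-fat tea (adjusted p = 0.000928). The stearoyl-CoA desaturase genes are close paralogs, so reads may be split between them. The acetyl-CoA carboxylase gene Acacb averaged 824 ± 468 CPM against 945 ± 387 in chow water, and 215 ± 71.8 in high-fat water, below high-fat tea (adjusted p = 0.0201). The lipogenesis list had 4 of 19 members at the chow level, against 52.5% of all genes, and a median of −0.35. At an unadjusted p below 0.05, 1 of the 19 was higher and 4 were lower, against 1384 and 1100 of all 21306 genes.

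Cyp2d22, Fmo1 and Fkbp5, genes of drug metabolism and of the glucocorticoid response, had high-fat tea means between those of chow water and high-fat water. Cyp2d22, a cytochrome P450, read 99.7, 182, 192, 154 and 214 CPM in chow water and 95.8, 132, 131, 54.0 and 129 CPM in high-fat tea, against 45.7 ± 6.79 CPM in high-fat water. The difference from chow water was not called (log2 −0.64, interval −1.09 to −0.18, adjusted p = 0.271), and that from high-fat water was (log2 1.24, adjusted p = 0.00746). Fmo1, a flavin monooxygenase, was at the chow level at 386 ± 145 against 403 ± 141 CPM (log2 −0.06), and above high-fat water (adjusted p = 0.0142). The drug metabolism list held 13 of 30 members at the chow level with a median of −0.14, against 52.5% of all genes, and 16 of 30 fell in high-fat water, against 7.11%. With all libraries edgeR called 0 members and DESeq2 3, against 16 and 267 of all 21306 genes. At an unadjusted p below 0.05, 6 members were lower and 2 higher, against 1100 and 1384 of all genes. Without replicate 1 of chow water and replicate 4 of high-fat tea, 2 members were called lower. These were Gsta3 (log2 −1.32, adjusted p = 0.000593), a glutathione transferase with close paralogs, and the sulfotransferase gene Sult1a1 (log2 −0.99, adjusted p = 0.00635). Fkbp5, a chaperone that glucocorticoids induce, averaged 188 ± 30.4 CPM against 280 ± 88.7 in chow water and 77.2 ± 42.1 in high-fat water (log2 −0.57, interval −1.19 to 0.04). In the glucocorticoid list, 1 of 16 fell, against 0.0422% of all genes, and 4 were at the chow level, against 52.5%. The other 11 were unresolved and the list median was −0.58, the lowest of the 33 lists. Without the same 2 libraries the list held 2 called members, as Hsd11b1, the enzyme that regenerates active glucocorticoid, was lower too (log2 −1.33, adjusted p = 0.0351). In high-fat water 9 of 16 fell, against 7.11% of all genes (median −1.54). Cfd, the adipokine adipsin, ran from 1840 to 19420 CPM in high-fat tea and from 5089 to 16350 CPM in chow water (log2 −0.44, unresolved).

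**Figure D5:**
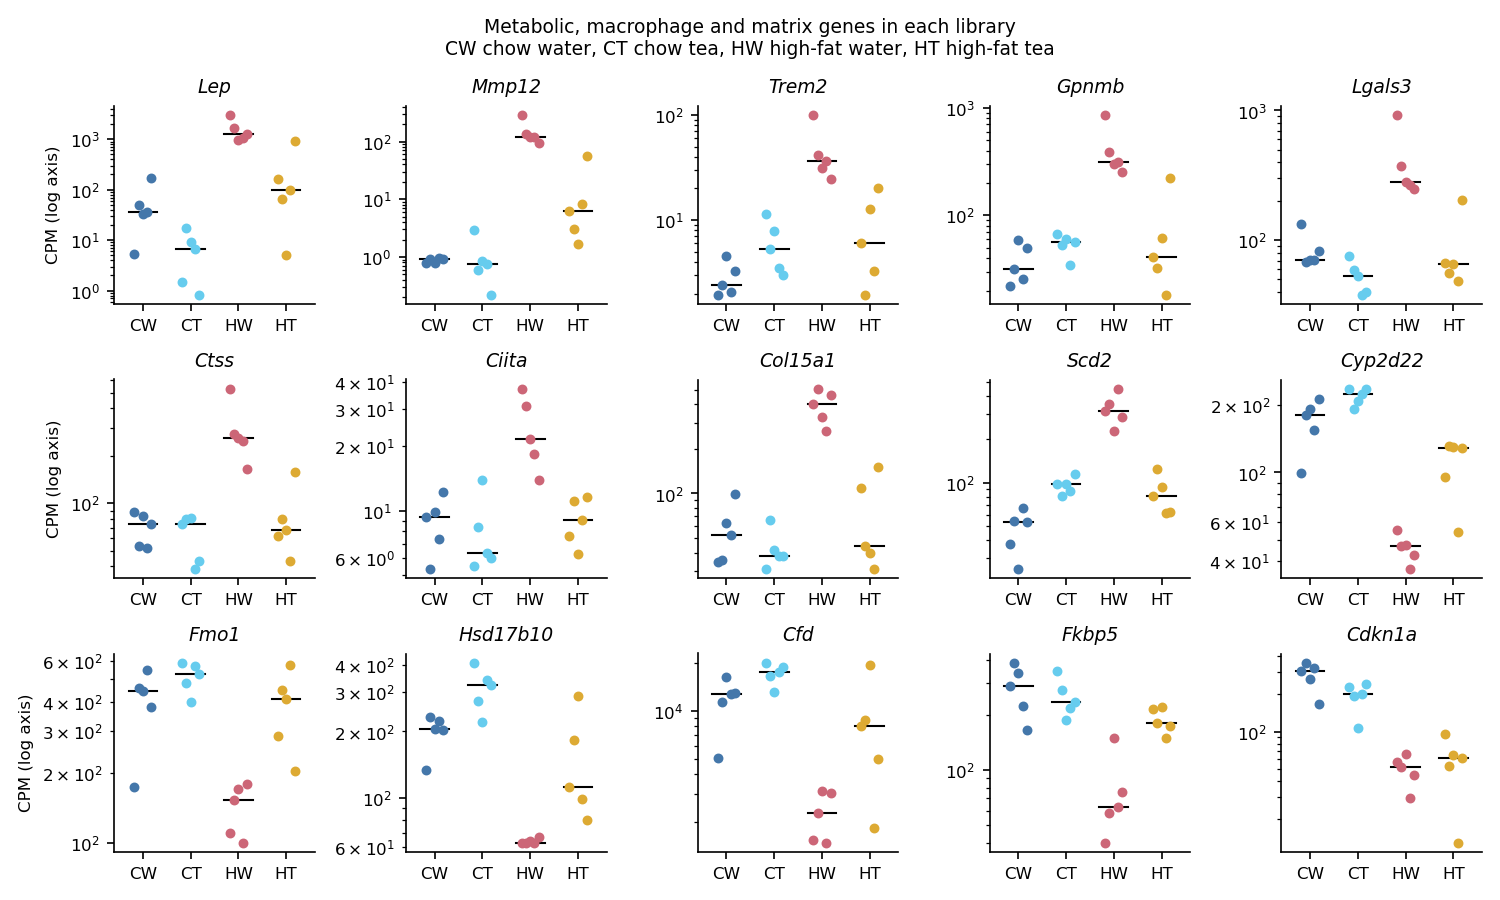
CPM (log axis) of 15 metabolic, macrophage and matrix genes in each of the 20 libraries, by group, with a line at the median of 5. For Lep, Mmp12, Gpnmb and Lgals3 high-fat tea replicate 5 is the highest of its group, and for Cdkn1a all 5 high-fat tea libraries lie below chow water.

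Markers of brown fat cells, macrophages, mesothelium, vessels, progenitors and lymphocytes had adjusted p-values between 0.330 (Cd3e) and 0.981 (Pecam1) in edgeR. The brown fat marker Ucp1 ran from 0.590 to 510 CPM in chow water and from 32.7 to 429 CPM in high-fat tea, and its interval was too wide to place it (log2 −0.17, interval −3.58 to 3.23). The mesothelial marker Upk3b ran from 18.5 to 83.3 CPM in chow water and from 16.5 to 79.6 CPM in high-fat tea, and all 14 mesothelial genes were unresolved. The T cell marker Cd3e was at 1.11 to 4.66 and 0.349 to 1.95 CPM (log2 −1.06, adjusted p = 0.330). Adipoq was at the chow level (log2 −0.08, interval −0.85 to 0.70). In the 7 lists of other organs 0 genes were called by edgeR, and 1 without replicate 1 of chow water and replicate 4 of high-fat tea, the intestinal mucin gene Muc2 (log2 −1.50, adjusted p = 0.0113). All 13 pancreas genes were lower at an unadjusted p below 0.05, with chow water replicate 1 the library that held them. At that p 4 of 8 intestine genes were lower and 9 of 12 liver genes higher, against 1100 and 1384 of all 21306 genes. DESeq2 called 3 of the liver genes, against 267 of all genes. The part of these organ transcripts in the differences of other genes was not tested beyond the fits without the libraries that held them.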

How the data were processed

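For each of the 20 libraries the authors deposited a table of raw, whole-number counts of reads by gene. The submitters' processing notes list fastp 0.23.2, HISAT2 2.2.1 and featureCounts 2.0.6. Counting used the GENCODE vM32 annotation of GRCm39 by gene name, in paired mode without counting pairs and with no strand option, per the file headers. Pairs therefore entered mostly as 2 reads (68.1% to 72.2% of counts from 1 to 20 were even). Where genes overlap on opposite strands, reads were not told apart by strand. The notes name mm10 instead, but the tables' coordinates are GRCm39 and gene positions are printed as such, whereas promoters come from RefSeq on GRCm38.p6. Per the labels, poly-A RNA extracted with TRIzol entered a stranded kit. The labels and headers used here state no alignment settings.

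Low genes were removed from the deposited counts with filterByExpr of edgeR 4.0.16 (minimum count 10 in 5 libraries, minimum total 15), which kept 21306 of 56805 genes. After TMM scaling, the quasi-likelihood F test (R 4.3.3) was fitted to the 4 groups' means with all 20 libraries, p-values were adjusted by Benjamini-Hochberg, and genes with an adjusted p below 0.05 were called. The common coefficient of biological variation was 0.593. CPM are on the scaled library size, as mean ± SD over 5 mice. Standard errors (SE) were obtained from each log2 fold change and F value, and 95% intervals from these. The steps were tested on simulated counts. DESeq2 1.42.0, limma 3.58.1 (voom), other scaling, no filter, the 10 libraries alone, a replicate block and fits without libraries were the alternatives.

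By the design text each library of a group comes from its own mouse, and no 2 libraries of a group agreed within sampling noise (lowest chi-square per gene 87.2 over 20 pairs). The labels number replicates alike in each group, but correlations of deviations ran from −0.34 to 0.56, so the numbers were not taken to pair the mice. Named genes were a fixed set, the called genes without overlap between libraries (up to 10 in each direction by size, mean log2 CPM at least 1, no clone or predicted-gene names), the highest gene of each other-organ list, and from each list up to 3 called members and the one at the chow level with the narrowest interval. The members and lists were chosen with earlier results of these data known, and any other gene in the text was chosen with its values in view. The median SE was 0.606 for genes with a mean log2 CPM below 0 and 0.184 above 6. The values of 1 clock gene are not reported here.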

Additional observations from a re-analysis of the deposited data

Results flagged for a closer look

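Of 164 groups of 5 libraries tested on the log2 CPM scale for a library far from the others, 20 held one. Chance gives about 1 in 20 groups where groups are independent, which they were not here. Many of those found share a library, and the genes named for other organs were picked by their highest CPM in these libraries. Most lay in chow water replicate 1 or high-fat tea replicate 4, the libraries with pancreas and kidney transcripts. In chow water replicate 1, Pnlip, a pancreatic lipase, read 95800 CPM, Apoa1 read 3320 CPM and Pigr 1230 CPM, against at most 5.06, 8.23 and 14.5 CPM in the other 4. Pigr also read 245 CPM in high-fat tea replicate 4, against at most 6.77 CPM.

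Genes of fat cells were low in the same libraries. Chow water replicate 1 was the lowest of its group for Pparg (115 CPM, next 284), Cyp2e1 (2410, next 6590), Abhd5 (87.8, next 202), Hsd17b10 (134, next 204), Acadsb (157, next 221) and the clock gene Bhlhe41 (1.40, next 2.54). High-fat tea replicate 4 was the lowest for Pparg (59.9, next 229) and Col1a1 (70.0, next 216), and the highest for Gstt1 (94.0, next 63.7). In chow water replicate 1, Itgax (18.5, next 2.77), Lgals3 (133, next 82.3) and Pcna (41.7, next 26.9) were the highest of the group. Itgax, unresolved with all libraries (log2 0.51), was between −0.46 and 1.73 when each library was left out.

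In high-fat tea replicate 5, Lgals3 read 206 CPM, against at most 66.9 CPM in the other 4, and its log2 change against chow water was between −0.52 and 0.26 when each library was left out. Vldlr was highest in high-fat tea replicate 1 (202 CPM, next 132), Pik3ca lowest in replicate 2 (67.7, next 88) and Rigi lowest in replicate 3 (23.7, next 34.6). What these single libraries share beyond the values given was not tested.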

How the results depend on the processing

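The number of called genes, 16 with 7 higher and 9 lower, was 267 with DESeq2 (139 higher, 128 lower), 8 in a fit to the 10 libraries alone (3 lower), 53 without replicate 1 of chow water and replicate 4 of high-fat tea (16 higher, 37 lower), and 10 without the 5 libraries with transcripts of other organs (5 lower). Leaving out each library in turn gave 13 to 34 calls, 7 to 13 higher and 6 to 25 lower. DESeq2 size factors (RLE), limma voom and no filter gave 16, 18 and 14. With the replicate number as a block, 17 genes were called, 16 of them among those reported. For 1 of 5 chow water libraries, the high-fat tea library of its own number correlated best. Genes at the chow level numbered 6175 with a band of 1.5-fold in place of 2-fold, and 10322 to 11360 over the libraries left out. High-fat water against chow water gave 1890 to 3445 calls over the libraries left out. High-fat tea against high-fat water gave 408 calls without a filter, 2444 with DESeq2, 21 in a fit to those 10 libraries and 212 to 2017 over the libraries left out, with 312 and 513 without high-fat water replicates 2 and 3 and 332 and 260 without high-fat tea replicates 2 and 3. For high-fat tea against chow water, 82 named genes had 1475 values under the alternatives. Of these, 27 calls were lost, 2 were gained (both Mmp12) and 0 called values turned. Calls of named genes in the comparisons with high-fat water were not followed in this way. The sign turned in 101 values of uncalled genes. Where a count or call moved, the cause was not tested, except that fits to fewer libraries hold fewer samples. Of genes with a mean log2 CPM below 0, 11.0% could be placed at the chow level, and the parts of depth and of the spread between mice in this were not tested.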
